A study of Mus musculus with 7 samples.

Results

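The core autophagy machinery was followed in cells of the dorsal hippocampus enriched for microglia. It was read as a set of 44 genes, chosen by name for their place in the pathway. The choice was made with earlier results of these data known. All 44 were found among the 55401 gene identifiers of the count table, and all 44 passed the filter on low counts. The 7 libraries came from C57BL/6 mice of 6 to 8 weeks, which the series title calls male. The dorsal dentate gyrus of every mouse carried AAV-RAM-Cre, in which an activity-dependent promoter drives Cre recombinase in neurons engaged by an experience (engram neurons). The mice behind the 4 control libraries, EYFP 1 to 4, also received AAV-Dio-EYFP, a Cre-dependent virus for a yellow fluorescent protein. Those behind the 3 libraries ATG7 1 to 3 received AAV-Dio-Atg7-Flag in its place, which directs tagged ATG7 to the same neurons. The transgene was therefore aimed at neurons, whereas the RNA was taken from cells enriched with CD11b beads. The labels do not say whether each library is 1 mouse or a pool, so p-values measure the spread between libraries.

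Autophagy encloses cytoplasm in a double membrane and delivers it to the lysosome. The ULK1 kinase complex starts the process, and a lipid kinase complex around VPS34 marks the forming membrane. Pairs of ubiquitin-like conjugation reactions, in which ATG7 is the shared activating enzyme, then attach proteins of the LC3 and GABARAP family to the membrane lipid, and cargo receptors such as p62 bind them. In microglia and other phagocytes a part of the same conjugation machinery also acts on single-membrane phagosomes, in LC3-associated phagocytosis.

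None of the 44 genes passed the test between ATG7 and EYFP libraries. At a Benjamini-Hochberg adjusted p under 0.05 in edgeR's quasi-likelihood test, 0 members were higher and 0 were lower, whereas 0.755% of the 19199 genes tested passed (0.688% higher and 0.0677% lower in ATG7). At an unadjusted p under 0.05 the count was 0 of 44 members, against 12% of all genes tested. DESeq2 also gave 0 of 44 at either threshold, against 3.43% of genes after adjustment and 12.4% before, and so did limma-voom, against 0.958% and 12%. The 44 log2 fold changes ran from -0.22 (Atg4a) to 0.18 (Atg16l2) with a median of -0.0019, beside a median of -0.0037 over all genes tested. The estimates were precise: the 95% interval lay within 1.5-fold in both directions for 44 of 44 members and within 1.25-fold for 37, against 58.3% and 32.5% of all genes tested. All genes tested include genes with lower counts than any member, and the comparison was not matched for level. Differences of a size inside the members' intervals remain possible with 4 and 3 libraries. The 7 members whose interval reached past 1.25-fold were Atg4a, Atg10, Atg16l2, Map1lc3a, Gabarapl1, Calcoco1 and Tfeb, 5 of them conjugation genes.

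**Figure D1:**
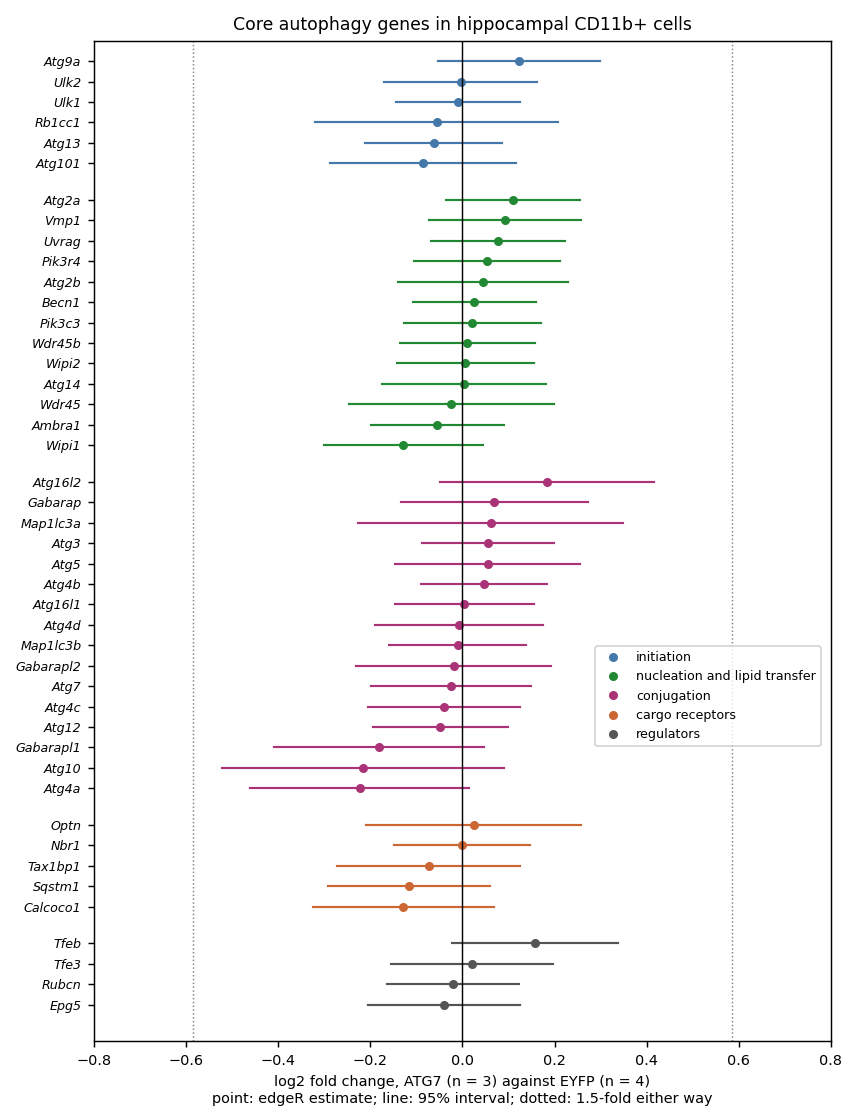
Log2 fold change of each of the 44 genes, ATG7 (3 libraries) against EYFP (4 libraries), with 95% intervals from edgeR, coloured by step of the pathway. Every interval includes 0 and none reaches the dotted lines at 1.5-fold.

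The libraries held RNA of microglia and of choroid plexus. Total counts ran from 35934210 to 55217119 per library, and the lowest count of any member in any library was 273. The 8 microglia markers summed to between 18965 and 23365 CPM (counts scaled to library size) over the 7 libraries. The 6 choroid plexus markers, led by the transthyretin gene Ttr, summed to 54535, 71931, 56154 and 65493 CPM in EYFP 1 to 4 and to 60844, 46174 and 54862 CPM in ATG7 1 to 3. All 6 had log2 fold changes below 0, and 0 of the 6 passed. The 7 neuron markers summed to between 21.8 and 44.01 CPM, with none at 0, and markers of astrocytes to 296 to 707 CPM, of oligodendrocytes to 141 to 468 CPM and of endothelial and mural cells to 358 to 847 CPM. EYFP 1 was the highest library for neuron, astrocyte and oligodendrocyte markers. The library labelled EYFP 3 stands apart: Xist was at 939 CPM there and at 0.151 to 0.574 CPM in the other 6, although the series is described as male. Y-linked genes were lower in EYFP 3 but present. Ddx3y was at 27.6 CPM there against 121 to 169 CPM in the other 6, and Uty at 7.38 against 35.5 to 48.0 CPM. Whether EYFP 3 holds material of both sexes was not tested. With or without EYFP 3, 0 of 44 members passed. In bulk RNA of this kind, fewer cells of a type and less RNA per cell cannot be told apart.

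Atg7 (ENSMUSG00000030314, chromosome 6, 114643097 to 114860614 in GRCm38), the gene carried by the virus, was at 35.0, 37.6, 36.1 and 33.6 CPM in EYFP 1 to 4 and 32.0, 35.5 and 37.4 CPM in ATG7 1 to 3. ATG7 1 was the lowest library, ATG7 3 lay just under the highest (EYFP 2), and the groups overlapped throughout. This gave a log2 fold change of -0.025 (95% interval -0.20 to 0.15) and an adjusted p of 0.939 (edgeR). With neuron markers this low beside those of microglia, this value does not check the overexpression itself.

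Sequence near the start sites of members is shown because TFEB and TFE3 bind an element with the core CACGTG, a hexamer (E-box) that clock factors and other E-box proteins bind as well. RefSeq promoter windows on GRCm38.p6, from 250 bases before to 50 after an annotated start, were matched for 36 of the 44 members. The palindrome CACGTG, which reads the same on both strands, lay in a window of 5 of the 36 (13.9%), against 8.09% of the 27025 genes with such a window. The longer palindrome TCACGTGA, which contains it, was found for 1 member, Atg3, against 1.12% of genes. Stretches upstream of the start follow 5′ to 3′ on the gene's strand, with CACGTG in capitals. A match is a description of these letters and not of binding.
Atg3: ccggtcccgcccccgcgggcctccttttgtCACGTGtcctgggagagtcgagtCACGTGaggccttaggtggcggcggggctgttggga
Atg5: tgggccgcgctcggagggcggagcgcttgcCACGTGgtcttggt
Atg7: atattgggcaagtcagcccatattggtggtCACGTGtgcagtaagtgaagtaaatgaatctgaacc
Rubcn: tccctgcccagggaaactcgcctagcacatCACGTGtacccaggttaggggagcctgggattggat
The Atg3 stretch (chr16:45158705-45158793, plus strand) holds 2 copies, ending 88 and 65 bases before the start. The Atg5 stretch (chr10:44268295-44268338, plus strand) holds 1, ending 8 bases before it. The Atg7 stretch (chr6:114670934-114670999, plus strand) precedes a start 27999 bases inside the gene as GENCODE annotates it, so it is an internal start. The Rubcn stretch (chr16:32868419-32868484, minus strand) likewise precedes a start 9400 bases inside its gene. In Atg14, the remaining gene with a match, the hexamer overlaps an annotated start that also lies inside its gene, by 2215 bases. The 5 members with the hexamer had log2 fold changes from -0.025 to 0.055, inside the range of the 31 without it (-0.22 to 0.18).

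By level per gene length, Atg7 stood low among the 44 genes. The libraries also held choroid plexus RNA, so the order is that of the mixture and not of microglia alone. In RPKM, which is CPM per kilobase of exon where exon length is the union of the annotated exons, EYFP means spanned 83.8-fold from Gabarap at 109 to Atg16l2 at 1.30. Gabarap (98.9 to 122 over the 4 EYFP libraries) and Map1lc3a (80.7 to 122) overlapped, and so did Map1lc3a and Sqstm1 (78.2 to 90.2). Sqstm1, which encodes the receptor p62, lay above Gabarapl1 (40.5 to 53.8) without overlap, and Gabarapl1 lay above Ulk2 (33.9 to 39.2). Atg7 stood in place 35 of 44 at 5.10 RPKM, in a run of neighbours from Atg4b to Rb1cc1 (places 33 to 36) whose ranges overlapped from each to the next. At the low end Wdr45 (2.89 to 3.09) and Atg16l2 (1.18 to 1.44) each lay clear of the gene above. Of the exon bases of Wdr45, 24.7% are shared with another gene model on the same strand, so its count is uncertain. Of the 43 pairs of neighbours in this order, 33 overlapped and 10 did not. With the longest annotated transcript as the length, 9 of the same 10 genes led the order, and Gabarap, Map1lc3a and Sqstm1 kept their places at its head. By that length Atg16l2 stayed last, but Wdr45 moved from place 43 to place 37, with an EYFP mean of 6.16 RPKM.

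**Figure D2:**
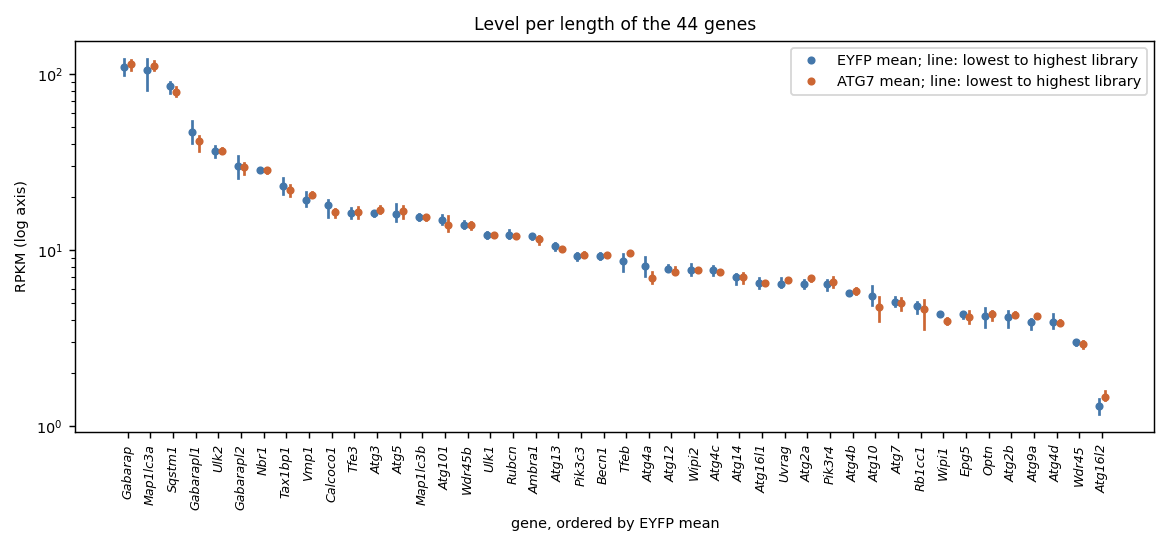
RPKM of each of the 44 genes on a log axis, ordered by the EYFP mean. Points are group means and lines run from the lowest to the highest library; the 2 groups run side by side from Gabarap at 109 to Atg16l2 at 1.30 in EYFP.

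Several steps are served by paralogues, and in several families 1 member carried most of the RNA per length in these mixed libraries. Ulk2 gave 74.9% ± 1.45 in the control libraries (SD, n = 4) against 75.0% ± 0.649 in the ATG7 libraries (SD, n = 3) of the summed RPKM of Ulk1 and Ulk2, the kinases that start autophagy. Wdr45b gave 82.2% ± 0.691 in the control libraries (SD, n = 4) against 82.5% ± 1.32 in the ATG7 libraries (SD, n = 3) beside Wdr45, both of which encode binders of the lipid that VPS34 makes. Wipi2, which recruits the conjugation complex to that lipid, gave 63.9% ± 1.48 in the control libraries (SD, n = 4) against 66.1% ± 1.18 in the ATG7 libraries (SD, n = 3) beside Wipi1. The Wdr45b share rests on the count of Wdr45, which is uncertain as given above. Atg16l1, the scaffold needed for LC3 lipidation, gave 83.4% ± 0.465 in the control libraries (SD, n = 4) against 81.6% ± 0.689 in the ATG7 libraries (SD, n = 3) beside Atg16l2. Among LC3 and GABARAP genes, Gabarap took 35.6% ± 2.57 in the control libraries (SD, n = 4) against 36.8% ± 0.450 in the ATG7 libraries (SD, n = 3) and Map1lc3a 34.2% ± 3.43 in the control libraries (SD, n = 4) against 35.4% ± 1.33 in the ATG7 libraries (SD, n = 3). Map1lc3b, the form most used as an autophagosome marker, took 5.07% ± 0.461 in the control libraries (SD, n = 4) against 4.94% ± 0.194 in the ATG7 libraries (SD, n = 3). The 4 protease genes that trim LC3 were more even, from 15.3% for Atg4d to 31.8% for Atg4a in EYFP. The order within the Atg4 family depends on the length used: by longest transcript Atg4b led at 33.3%.

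No initiation gene passed, and the 6 log2 fold changes ran from -0.086 to 0.12. The mean log2 CPM of the 6 genes was 5.80 ± 0.021 over the control libraries (SD, n = 4) against 5.78 ± 0.028 over the ATG7 libraries (SD, n = 3). Ulk1 and Ulk2, the kinases, had log2 fold changes of -0.010 and -0.0036. Atg13 (-0.063) and Atg101 (-0.086) encode partners that hold the kinase complex together. Rb1cc1, which encodes the scaffold FIP200, was at 73.0, 71.3, 64.7 and 74.2 CPM in EYFP 1 to 4 and 76.2, 75.6 and 52.4 CPM in ATG7 1 to 3. ATG7 3 was the lowest of the 7 by a wide margin and the other ATG7 libraries were the highest, so the spread within ATG7 exceeded the difference of -0.056.

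Atg9a (chromosome 1, 75180860 to 75192196 in GRCm38), which encodes the lipid scramblase of the vesicles that seed the membrane, had the smallest p of this step. It was at 23.4, 20.5, 23.4 and 22.7 CPM in EYFP 1 to 4 and 23.7, 25.1 and 24.6 CPM in ATG7 1 to 3. The 3 ATG7 libraries lay above the 4 EYFP libraries, by a margin of less than 1 CPM. The log2 fold change of 0.12 (95% interval -0.053 to 0.30) did not pass (adjusted p = 0.608, edgeR). Of its annotated exon bases, 31.8% are shared with another gene model on the same strand, so its count is uncertain.

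Among the 13 nucleation and lipid transfer genes the mean log2 CPM was 5.53 ± 0.022 over the control libraries (SD, n = 4) against 5.55 ± 0.028 over the ATG7 libraries (SD, n = 3). The subunits of the VPS34 complex were close to 0: the log2 fold change was 0.022 for Pik3c3, the lipid kinase itself, 0.054 for its regulatory subunit gene Pik3r4 and 0.026 for Becn1. Atg14 and Uvrag, which encode the subunits that set apart the early and the late form of that complex, gave 0.0035 and 0.078. Becn1 shares 43.9% of its exon bases with Cntd1 on the opposite strand, and the strand setting of the counting is not given in the sources used here. The lipid transfer genes Atg2a (0.11), Atg2b (0.045) and Vmp1 (0.093) had values above 0 and did not pass, and Atg2a had the smallest p of the step (adjusted p = 0.574, edgeR). Atg2a was at 48.1, 47.1, 50.4 and 52.2 CPM in EYFP 1 to 4 and 54.5, 53.9 and 51.4 CPM in ATG7 1 to 3. The ranges met at their edges: EYFP 4 lay above ATG7 3.

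Wipi1 (chromosome 11, 109573331 to 109611967 in GRCm38) was the only member of the 44 with every ATG7 library below every EYFP library. It was at 18.7, 19.3, 19.4 and 19.2 CPM in EYFP 1 to 4 and 17.6, 16.8 and 18.1 CPM in ATG7 1 to 3. The EYFP libraries lay within 1 CPM of each other and all 3 ATG7 libraries sat below them, for a log2 fold change of -0.13 (95% interval -0.30 to 0.044) that did not pass (adjusted p = 0.578, edgeR). Together with Atg9a, 2 of 44 members had groups that did not overlap, against 11.2% of all genes tested (6.33% with ATG7 above and 4.91% with ATG7 below). The other lipid binders gave 0.0065 for Wipi2, -0.024 for Wdr45 and 0.011 for Wdr45b, and Ambra1, which links the kinase and lipid kinase complexes, gave -0.055. Wdr45 shares 24.7% of its exon bases with another gene model on the same strand, as given above.

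Conjugation holds 16 members, and its mean log2 CPM was 5.52 ± 0.068 over the control libraries (SD, n = 4) against 5.50 ± 0.046 over the ATG7 libraries (SD, n = 3). The enzymes that act with ATG7 differed by little: log2 fold changes were 0.055 for Atg3, which hands LC3 to the lipid, 0.055 for Atg5 and -0.048 for Atg12, whose products are joined to each other, and 0.0042 for Atg16l1. Atg10, which encodes the enzyme that joins ATG12 to ATG5, varied most among the 44 genes, with a coefficient of variation of 13.9% over the 7 libraries and a log2 fold change of -0.22 (95% interval -0.52 to 0.091). Atg16l2 had the highest estimate of the set at 0.18 (95% interval -0.048 to 0.42) and the lowest level per length. Neither passed (adjusted p = 0.604 and 0.548, edgeR).

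Atg4a (chromosome X, 140956907 to 141164270 in GRCm38), a gene for a protease that trims LC3, had the smallest p of all 44 members. It was at 18.9, 24.4, 22.9 and 19.8 CPM in EYFP 1 to 4 and 18.0, 17.2 and 20.1 CPM in ATG7 1 to 3. EYFP 2 and EYFP 3 stood highest, while EYFP 1 and EYFP 4 lay inside the ATG7 range. Its log2 fold change of -0.22 (95% interval -0.46 to 0.015) had an adjusted p of 0.452 (edgeR). Without EYFP 3, the library with Xist, it was -0.20 (adjusted p = 0.573, edgeR). Among its relatives, log2 fold changes were 0.046 for Atg4b, -0.039 for Atg4c and -0.0076 for Atg4d. The other X-linked members, Wdr45 and Tfe3, gave -0.015 and 0.032 without that library.

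The LC3 and GABARAP genes encode the ubiquitin-like proteins that end up on the membrane. Gabarap was at 182, 225, 209 and 187 CPM in EYFP 1 to 4 and 222, 194 and 217 CPM in ATG7 1 to 3. Map1lc3a was at 95.3, 142, 117 and 144 CPM in EYFP 1 to 4 and 139.6, 124 and 126 CPM in ATG7 1 to 3. Both were lowest in EYFP 1, and for both the ATG7 libraries lay inside the EYFP range. Map1lc3b was at 111, 121, 119.9 and 113 CPM in EYFP 1 to 4 and 117, 111 and 118 CPM in ATG7 1 to 3. Gabarapl2 was at 59.5, 79.1, 70.0 and 70.2 CPM in EYFP 1 to 4 and 70.8, 62.6 and 72.9 CPM in ATG7 1 to 3. These genes had log2 fold changes of 0.070 for Gabarap, 0.062 for Map1lc3a, -0.010 for Map1lc3b and -0.019 for Gabarapl2, with adjusted p values from 0.834 to 0.975 (edgeR).

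Gabarapl1 was at 81.6, 108, 96.0 and 93.2 CPM in EYFP 1 to 4 and 89.6, 73.2 and 88.0 CPM in ATG7 1 to 3. ATG7 2 was the lowest and EYFP 2 the highest, with EYFP 1 below 2 of the ATG7 libraries. Its estimate was -0.18 (95% interval -0.41 to 0.046) on the log2 scale (adjusted p = 0.544, edgeR). The choroid plexus markers were also highest in EYFP 2 and lowest in ATG7 2. With their mean log2 CPM as a covariate, a fit chosen after seeing the data, the value for Gabarapl1 was -0.014 and that for Map1lc3a was 0.33 (adjusted p = 0.244, edgeR). Of the exon bases of Gabarapl1, 28.3% are shared with a transcript on the opposite strand.

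**Figure D3:**
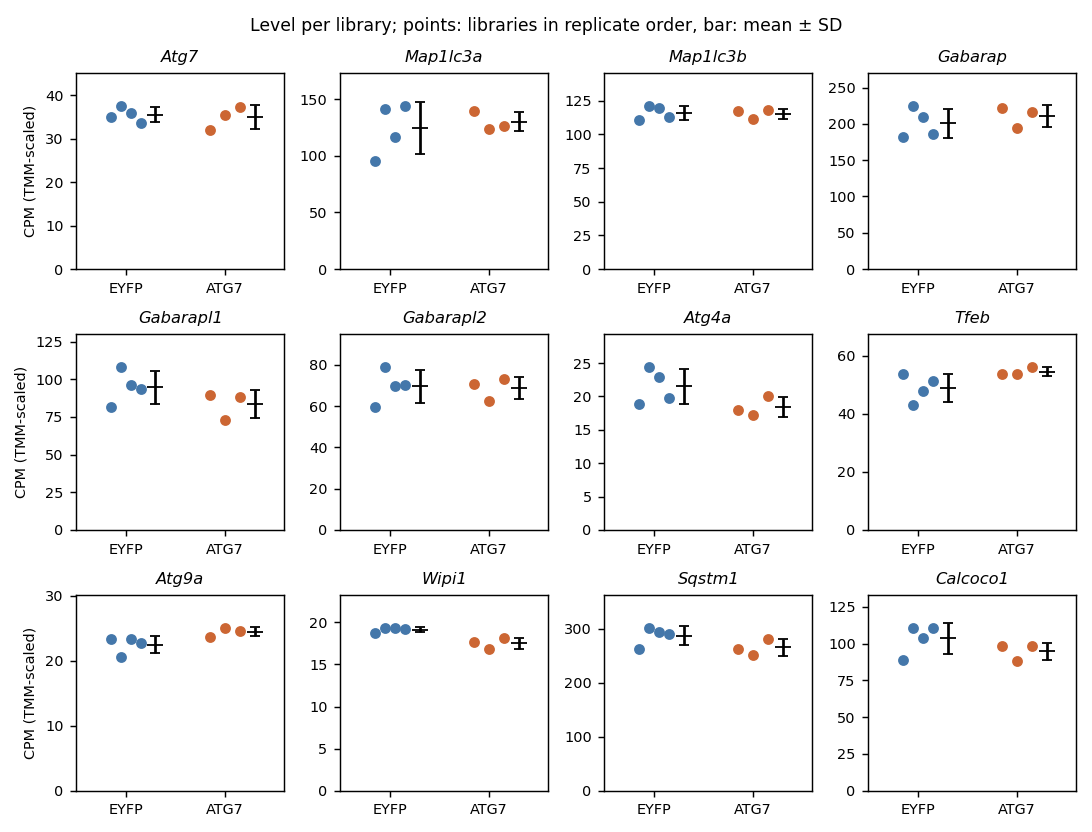
CPM of Atg7, the LC3 and GABARAP genes and 6 further members in each library, on axes that start at 0; points are libraries and bars the mean ± SD (n = 4 EYFP, n = 3 ATG7). Groups overlap for all genes shown except Atg9a and Wipi1.

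The 5 cargo receptor genes had the lowest mean difference of the steps, at -0.056 on the log2 scale, less than 1 SD of the EYFP libraries. Their mean log2 CPM was 6.86 ± 0.10 over the control libraries (SD, n = 4) against 6.80 ± 0.055 over the ATG7 libraries (SD, n = 3). Sqstm1 was at 263, 303, 295 and 291 CPM in EYFP 1 to 4 and 263, 252 and 282 CPM in ATG7 1 to 3. EYFP 1 and ATG7 1 were nearly equal, and ATG7 3 lay above EYFP 1 only. Calcoco1, which encodes a receptor for the endoplasmic reticulum and Golgi, was at 88.6, 111, 104 and 111 CPM in EYFP 1 to 4 and 98.1, 88.1 and 98.0 CPM in ATG7 1 to 3. Its 2 lowest libraries, ATG7 2 and EYFP 1, came from different groups. Log2 fold changes were -0.12 (95% interval -0.29 to 0.061) for Sqstm1 and -0.13 (95% interval -0.32 to 0.068) for Calcoco1 (adjusted p = 0.636 and 0.638, edgeR). With the choroid plexus covariate they were -0.049 and 0.0091. Nbr1, an older relative of p62, was the steadiest of the 44 genes, with a coefficient of variation of 2.37%. Optn and Tax1bp1, which encode receptors for damaged mitochondria and protein aggregates, gave 0.025 and -0.074.

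Of the 4 regulators, Tfeb (chromosome 17, 47737030 to 47792419 in GRCm38) had the smallest p. TFEB and TFE3 are transcription factors that switch on lysosomal and autophagy genes. Tfeb was at 53.7, 42.9, 47.7 and 51.3 CPM in EYFP 1 to 4 and 53.8, 53.5 and 56.2 CPM in ATG7 1 to 3. EYFP 1 lay between the ATG7 libraries and the other 3 EYFP libraries below them. Tfeb had a log2 fold change of 0.16 (95% interval -0.023 to 0.34, adjusted p = 0.495 in edgeR). Without EYFP 1 it was 0.21 (adjusted p = 0.264, edgeR). Without that library, the highest in neuron and glial markers as given above, 4 members, Atg4a, Gabarapl1, Calcoco1 and Tfeb, had an unadjusted p under 0.05, against 15% of genes, and 0 passed after adjustment. Tfe3 gave 0.020. Rubcn, whose product restrains canonical autophagy and is needed for LC3-associated phagocytosis, gave -0.021, and Epg5, a tether for fusion with the lysosome, gave -0.040.

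The highest and lowest values of the members gathered in a few libraries. EYFP 2 was the highest library for 9 of the 16 conjugation genes and 3 of the 5 cargo receptor genes, and the lowest for 6 of the 13 nucleation genes. ATG7 2 was the lowest for 4 of the 5 cargo receptor genes. EYFP 1 was the lowest for 5 conjugation genes, among them Map1lc3a, Gabarap and Gabarapl2. The summed choroid plexus level was highest in EYFP 2 and lowest in ATG7 2, as given above. Beyond the covariate values given for single genes, its part in this pattern was not tested.

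**Figure D4:**
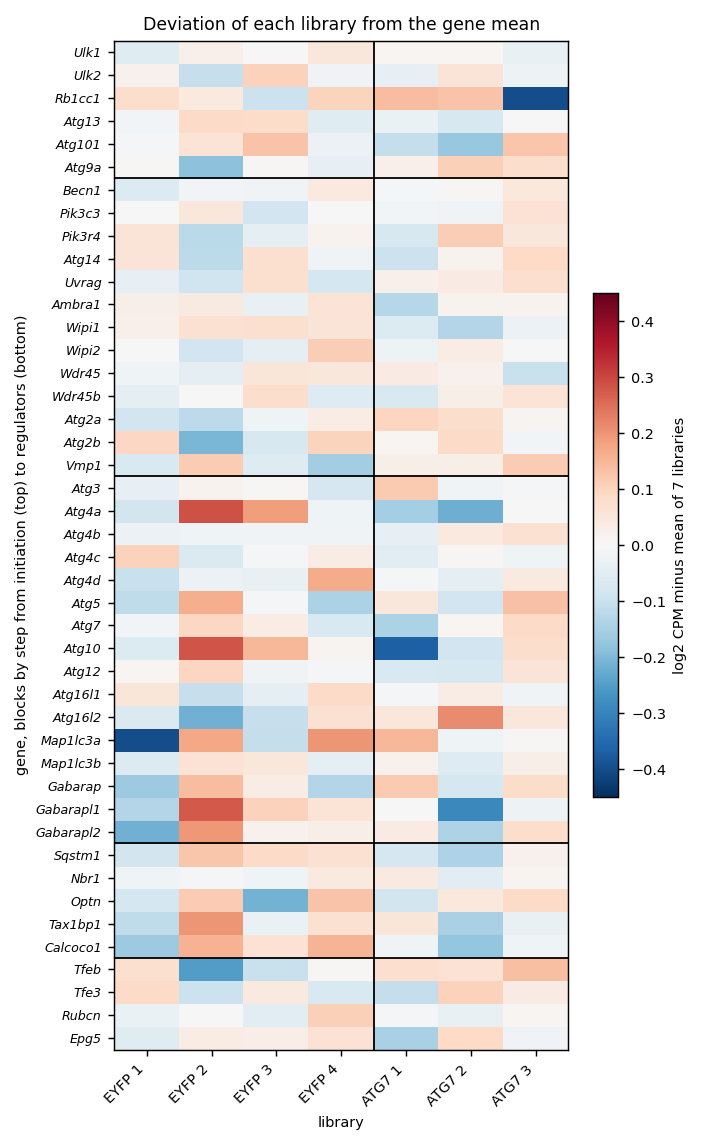
Log2 CPM of each member in each library minus the mean of the 7 libraries, in blocks from initiation at the top to regulators at the bottom; the vertical line parts EYFP from ATG7. Deviations are largest for Map1lc3a in EYFP 1, Rb1cc1 in ATG7 3 and Atg10 in ATG7 1.

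The step means set these differences beside those of another gene group. The 5 step means differed between the groups by -0.056 to 0.030 on the log2 scale. Over all 44 genes the mean log2 CPM was 5.77 ± 0.029 over the control libraries (SD, n = 4) against 5.77 ± 0.023 over the ATG7 libraries (SD, n = 3). In the same libraries 12 interferon response genes had a median log2 fold change of 1.44, 6 of the 12 passed in edgeR against 0.755% of all genes, and their mean log2 CPM ran from 4.01 to 5.12 in EYFP and from 5.67 to 6.17 in ATG7. EYFP 3 was the lowest library for all 12. Without it the median was 1.22 and 12 of the 12 passed, whereas 1 passed without EYFP 4, ATG7 2 or ATG7 3, 2 without EYFP 2 and 0 with the choroid plexus covariate (edgeR).

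**Figure D5:**
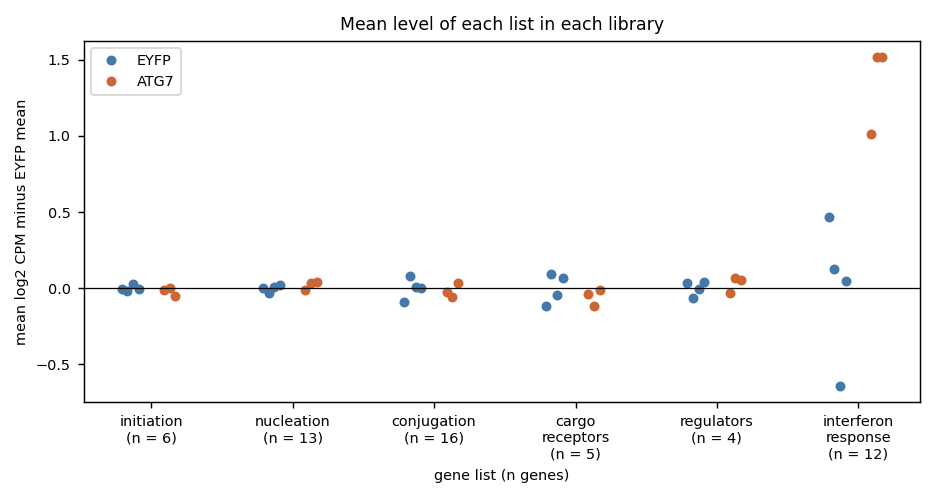
Mean log2 CPM of the members of each step in each library, minus the EYFP mean of that list, with 12 interferon response genes for scale. The autophagy steps stay close to 0 in all 7 libraries, while the interferon list separates the groups.

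Beyond the 44, 77 further genes of the pathway were read from lists by function, of which 76 passed the filter (Atg9b did not). None of the 76 passed the edgeR test, against 0.755% of all genes, and 8 of the 76 had an unadjusted p under 0.05, against 12% (edgeR). Among 29 genes of nutrient sensing upstream of ULK1, 2 did; the smallest p was that of Prkaa1, a catalytic subunit gene of the energy sensor AMPK, at -0.17 (95% interval -0.32 to -0.029, adjusted p = 0.315 in edgeR). Among 13 genes of fusion with the lysosome, 0 did, and the smallest p was that of the SNARE gene Ykt6, at -0.18 (95% interval -0.39 to 0.026, adjusted p = 0.494 in edgeR). Among 16 receptors for organelles and other selective cargo, 0 passed after adjustment, and 6 of the 16 estimates lay above 0, against 49.2% of all genes tested. Among 12 tested further autophagy factors, 0 passed after adjustment and 1 had an unadjusted p under 0.05 (edgeR). It was Trp53inp2, whose product binds LC3 and GABARAP proteins, at -0.31 (95% interval -0.52 to -0.10, adjusted p = 0.196 in edgeR). Trp53inp2 was at 181, 223, 180.2 and 215 CPM in EYFP 1 to 4 and 169, 157 and 156 CPM in ATG7 1 to 3, so the ATG7 libraries lay below the EYFP libraries. Its adjusted p was 0.0179 without EYFP 1 and EYFP 3 (edgeR). That fit was added after seeing the data, and 3.64% of all genes tested passed in it. With the choroid plexus covariate, also added after seeing the data, the log2 fold change of Trp53inp2 was -0.15 (edgeR).

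The NADPH oxidase of LC3-associated phagocytosis was the related list with the highest median. All 6 of its genes had estimates above 0, as did 49.2% of all genes tested, with a median log2 fold change of 0.19, and 4 of the 6 had an unadjusted p under 0.05, against 12% of all genes, while 0 passed after adjustment (edgeR). Cybb, the catalytic subunit gene, was at 75.6, 73.7, 53.3 and 60.7 CPM in EYFP 1 to 4 and 87.5, 111 and 119 CPM in ATG7 1 to 3. Every ATG7 library lay above every EYFP library. Its log2 fold change was 0.68 (95% interval 0.38 to 0.99), with an adjusted p of 0.0571 in edgeR, just short of the threshold. DESeq2 called it (adjusted p = 3.37e-04), and edgeR did so without a filter (0.0497), without EYFP 1 (0.0330) and without ATG7 1 (0.0294). Without EYFP 3, its lowest library, the log2 fold change was 0.59 (adjusted p = 0.0656, edgeR). Over all alternatives the adjusted p reached 0.456. With the replicate number as a block, 0 of the 19199 genes tested passed in edgeR, so Cybb did not. With the choroid plexus covariate, 12 of the 19199 passed. Markers of blood myeloid cells, which also express Cybb, summed to 48.4 to 75.7 CPM in EYFP and 36.4 to 124 CPM in ATG7, and their part in the result was not tested. The interferon response list, given above, was also higher in all ATG7 libraries, and its relation to Cybb was not tested.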

How the data were processed

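The authors deposited raw counts per gene, 55401 Ensembl identifiers in 7 columns. The submitters' processing notes name fastp 0.20.1, HISAT2 2.0.5, featureCounts and GRCm38 (mm10). The annotation release, strand setting and handling of shared reads are not given in the sources used here. Per the labels, tissue was dissociated, CD11b beads enriched microglia, and libraries followed a VAHTS mRNA kit. Symbols, positions and exon lengths came from GENCODE M21 (55141 identifiers matched). The 37 mitochondrial genes held 0 counts.

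All 19199 genes that passed filterByExpr were fitted with edgeR 4.0.16 (R 4.3.3), TMM factors, robust quasi-likelihood and no covariate. Intervals used an SE equal to the size of the log2 fold change over the root of F. CPM values carry TMM factors, log2 CPM a prior count of 2, and RPKM is CPM per kilobase. The code was tested on simulated counts. Alternatives were DESeq2 1.42.0, voom in limma 3.58.1, other scalings and filters, a replicate block and each library left out. The members, the related lists and the tests were chosen with earlier results of these data known. Text names all members, with per-library values for Atg7, the LC3 and GABARAP genes, the smallest p of each step, and others chosen after their values were seen (Rb1cc1, Wipi1, Calcoco1). Of related lists it names the smallest p, except in the list of organelle and selective receptors, where that gene is not reported here.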

Additional observations from a re-analysis of the deposited data

Results flagged for a closer look

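Within the 4 EYFP libraries, 55 values (the 44 members, 5 related genes and 6 list means) were searched for a single library apart from the rest (Dixon's ratio of gap to range, 95% level). There was 1, where chance gives 2.75. Ykt6 was at 183 CPM in EYFP 3, against 152, 151 and 147 CPM in EYFP 1, 2 and 4. Without EYFP 3 its log2 fold change was -0.11 in place of -0.18. None of the 44 members had a library set apart in this way.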

How the results depend on the processing

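The counts of 0 members higher and 0 lower held under all 17 alternatives, of which the choroid plexus covariate and the fit without EYFP 1 and EYFP 3 were added after seeing the data. The smallest adjusted p of any member under any of them was 0.171 (Calcoco1 without EYFP 1 and EYFP 3). Of the members, 25 changed sign at least once, in 84 of 748 refitted values, the largest of these being -0.15 for Map1lc3a without EYFP 1 and EYFP 3; no member's direction is therefore claimed. Members with an unadjusted p under 0.05 numbered 4 without EYFP 1 and at most 3 in the others. All 54 refitted step means moved by less than 1 SD of the EYFP libraries. By longest transcript, 9 of the 10 leading genes were shared. The number of all genes called was 145, and 297 with no filter, 582 with DESeq2, 12 with the choroid plexus covariate, 710 without EYFP 1 and EYFP 3 (261 higher, 449 lower), and 28 to 277 when 1 library was left out (277 without EYFP 1, 94 without EYFP 2, 30 without EYFP 4, 28 without ATG7 2 and 30 without ATG7 3). With the replicate number as a block it was 0, with 1256 at an unadjusted p under 0.05. The block changed no member's call. Deviations of same-numbered libraries correlated at -0.0609, -0.182 and 0.0664, and no library correlated best with its own number, so the numbers were not read as pairs. The counts of the members were all at least 273. The lowest was that of Atg10, which also had the highest coefficient of variation (13.9%), and the part of depth was not tested.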

Other observations

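Shares within families of paralogues cancel whatever a library adds to all members alike. They do not cancel RNA of other cells that holds the members in other proportions. The part of choroid plexus RNA in these shares was not tested. In 3 of 9 families a share had groups that did not overlap, by either measure of length. Counted by gene this was 4 of 23 shares, and those of Atg16l1 and Atg16l2 mirror each other. For the CPM of single genes, a different measure, 11.2% of all genes tested had groups that did not overlap. The shares named below were chosen for their values and carry no test, and no rate over other gene families was computed. Gabarapl1 made up 15.6%, 15.6%, 15.6% and 14.7% of the summed RPKM of the LC3 and GABARAP genes across EYFP 1 to 4, against 13.5%, 12.6% and 13.9% across ATG7 1 to 3. All 3 ATG7 libraries lay below all 4 EYFP libraries, although the CPM of Gabarapl1 itself overlapped. Atg4b, the main LC3-trimming protease gene, made up 22.5% ± 0.496 in the control libraries (SD, n = 4) against 24.4% ± 0.612 in the ATG7 libraries (SD, n = 3) of the Atg4 family. Atg16l2 made up 16.6% ± 0.465 in the control libraries (SD, n = 4) against 18.4% ± 0.689 in the ATG7 libraries (SD, n = 3) of the Atg16l pair, and Atg16l1 the rest. By longest transcript the Atg16l2 share was 9.22% against 10.3%.

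Ddit4, an inhibitor of mTORC1 signalling in the nutrient sensing list, had the widest interval of the related genes, with 43.2, 51.3, 110.3 and 28.7 CPM in EYFP 1 to 4 and 34.0, 27.0 and 29.7 CPM in ATG7 1 to 3. EYFP 3 held the highest value, and EYFP 4 lay below 2 of the 3 ATG7 libraries. Its log2 fold change was -0.95 (95% interval -2.10 to 0.20, adjusted p = 0.510 in edgeR). Without EYFP 3, the library with Xist, it was -0.45 (adjusted p = 0.390, edgeR). It is named because of its values.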
